A study of Mus musculus with 12 samples.

Results

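The regions described here lie in or near a cluster of zinc finger genes near the distal end of mouse chromosome 4. They were chosen by position: a region was taken when its summit, the base with the highest signal, fell between 145000001 and 148000000 on chromosome 4 of the mm10 build. Of 9381 regions in 4 lists, 272 met this rule, and 455 lay on the rest of chromosome 4. Tconv Ku70 had the most, 126 of its 1791 regions, followed by Treg Ku70 with 77 of 5295, WT FOXP3 with 49 of 1751 and KO FOXP3 with 20 of 544.

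The study asked how the DNA repair protein Ku70 bears on the transcription factor FOXP3, and profiled both by chromatin immunoprecipitation sequencing (ChIP-Seq). FOXP3 was profiled in regulatory T cells (Tregs, CD4+CD25+YFP+) of Foxp3 Yfp-Cre mice, called WT, and of Xrcc6 fl/fl Foxp3 Yfp-Cre mice, called KO, in which Cre from the Foxp3 locus removes the gene for Ku70 in cells that express Foxp3. Ku70 was profiled in Tregs and in conventional T cells (Tconv, CD4+CD25-YFP-) of Foxp3 Yfp-Cre mice, so all groups carry that allele, on a C57BL/6J background. The 12 samples formed 4 sets of 2 immunoprecipitated replicates and 1 input, and the exact age of the animals used for ChIP-Seq is not given in the sources used here. Each set is represented by 1 list called on its pooled replicates, so no replicate spread exists, the read depth of the sets was not analysed here, and intervals below are 95% intervals for counting error only.

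C2H2 zinc finger proteins bind DNA through tandem fingers, each a short loop held around a zinc ion by a pair of cysteines and a pair of histidines. Many carry a KRAB domain, which recruits TRIM28 and the histone methyltransferase SETDB1 to silence retrotransposons and other repeats. Their genes expand by local duplication, so neighbouring genes, their pseudogenes and the sequence between them are near-copies of each other. The distal chromosome 4 cluster of the mouse is a young example of this kind.

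The window held 20 protein-coding zinc finger genes, 16 on the plus strand and 4 on the minus strand, with lengths of 18.8 to 55.8 kb. Fingers were counted in the GENCODE coding sequences as C-C-H-H patterns, and the genes encoded 2 to 20 of them, with a median of 11.5. Of 61 annotated pseudogenes in the window, 3 encoded at least 3 fingers in some reading frame, namely Gm13230 with 10, Znf41-ps with 11 and Gm13147 with 3. In all, 26 arrays of 3 or more fingers were found in the window sequence, from 145449619 to 147826741, and 251 of the 272 regions lay between these positions. The assembly has 6 gaps there, of 432 kb in total, which leaves 2.57 Mb of sequence.

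Similar sequence before the starts of some of the genes links a few regions of different lists, and it is shown first. Few regions lay at gene starts, and 2.94% of the summits in the window were within 1 kb of a zinc finger gene start by GENCODE. Regions reached into the 250 bases before the RefSeq start (GRCm38.p6) of 5 zinc finger genes. The sequences are shown 5′ to 3′ in the direction of transcription, and capitals mark the bases under a region of any list.

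Gm13212, chr4:145584950-145585199, plus strand: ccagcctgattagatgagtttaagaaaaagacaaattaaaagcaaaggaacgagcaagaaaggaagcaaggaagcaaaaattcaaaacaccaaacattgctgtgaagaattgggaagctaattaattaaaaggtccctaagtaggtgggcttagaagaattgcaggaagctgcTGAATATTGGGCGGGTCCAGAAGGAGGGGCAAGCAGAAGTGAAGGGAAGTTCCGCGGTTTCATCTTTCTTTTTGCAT
Zfp984, chr4:147809789-147810038, minus strand: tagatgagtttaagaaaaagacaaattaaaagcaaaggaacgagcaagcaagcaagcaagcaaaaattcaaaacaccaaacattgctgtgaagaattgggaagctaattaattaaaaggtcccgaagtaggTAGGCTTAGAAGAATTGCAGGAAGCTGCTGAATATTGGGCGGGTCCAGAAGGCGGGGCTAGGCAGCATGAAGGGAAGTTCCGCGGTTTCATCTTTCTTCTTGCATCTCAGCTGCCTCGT
Zfp981, chr4:146514670-146514919, plus strand: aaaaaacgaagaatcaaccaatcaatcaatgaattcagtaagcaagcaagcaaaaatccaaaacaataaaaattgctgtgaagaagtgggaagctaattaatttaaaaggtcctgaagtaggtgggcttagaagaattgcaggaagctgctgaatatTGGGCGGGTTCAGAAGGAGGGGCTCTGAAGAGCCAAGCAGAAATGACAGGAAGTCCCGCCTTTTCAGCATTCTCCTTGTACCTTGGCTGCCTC
Zfp600, chr4:146156577-146156826, plus strand: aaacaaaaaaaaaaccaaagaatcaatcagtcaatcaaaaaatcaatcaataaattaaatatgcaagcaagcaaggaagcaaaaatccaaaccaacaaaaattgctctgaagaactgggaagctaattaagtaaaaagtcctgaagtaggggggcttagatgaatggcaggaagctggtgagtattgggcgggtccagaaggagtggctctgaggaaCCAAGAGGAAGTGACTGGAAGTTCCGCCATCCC
Zfp982, chr4:147500436-147500685, plus strand: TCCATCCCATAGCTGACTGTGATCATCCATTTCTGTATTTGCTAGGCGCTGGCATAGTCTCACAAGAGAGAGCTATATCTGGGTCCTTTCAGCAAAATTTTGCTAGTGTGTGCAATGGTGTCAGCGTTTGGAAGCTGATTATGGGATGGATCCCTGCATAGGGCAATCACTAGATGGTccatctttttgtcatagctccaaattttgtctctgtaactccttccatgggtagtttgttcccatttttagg

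The capitals belong to a Tconv Ku70 region at Gm13212, a Tconv Ku70 region at Zfp600, a WT FOXP3 region at Zfp981, a Tconv Ku70 region at Zfp982 and overlapping KO FOXP3 and Treg Ku70 regions at Zfp984. The upstream sequences of Gm13212 and Zfp984, which lie near opposite ends of the cluster, were 94.2% identical over 241 aligned bases. Those of Gm13212 and Zfp981 were 84.5% identical over 194 bases, and those of Zfp600 and Zfp981 83.6% over 214 bases. The upstream sequence of Zfp982 gave no alignment to any of the other 4. The 6 letters GGGCGG, searched on both strands, occurred in the other 4 and not in Zfp982, and in 32.7% of the 32851 promoters of the same table over the same 250 bases. The 4 sequences with these letters aligned to each other, so they are not independent cases. At Zfp600 the letters lay outside the region.

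Regions were far denser in the window than on the rest of chromosome 4 in all 4 lists. Because the window was proposed with this excess known, the densities are a description. The Tconv Ku70 list held 49.1 regions per Mb of window sequence (40.9 to 58.4, exact Poisson interval) and 0.401 per Mb elsewhere on chromosome 4, a ratio of 122 (89.2 to 169). The window thus took 126 of the 186 Tconv Ku70 regions of the chromosome, or 67.7%. The ratio was 17.4 (13.3 to 22.6) for Treg Ku70, with 29.98 regions per Mb in the window and 1.72 outside it. It was 28.8 (20.03 to 41.0) for WT FOXP3, with 19.1 and 0.662 per Mb, and 29.9 (16.5 to 52.4) for KO FOXP3, with 7.79 and 0.261 per Mb. The intervals of the density ratio overlapped between the FOXP3 lists, and that of Tconv Ku70 lay above the other 3. They treat regions as independent, although many lie close together. With regions within 10 kb merged, the ratio was 66.5 for Tconv Ku70 and 12.8 for Treg Ku70, both below these intervals. For WT FOXP3 it was 23.3 and for KO FOXP3 25.4, both inside them. With 1 list per set, a difference between lists was not tested. With single-copy summits counted per single-copy base, as defined below, the ratios were 83.0 for Tconv Ku70, 14.2 for Treg Ku70, 10.3 for WT FOXP3 and 35.5 for KO FOXP3. In the window these rest on 29, 19, 6 and 7 regions in that order. They are given without intervals, so the FOXP3 lists are not compared by them. With the autosomes and X divided into fixed stretches of 3 Mb, none of the other 887 held as many regions of any list, and the highest count elsewhere was 56 for Tconv Ku70, 50 for Treg Ku70, 23 for WT FOXP3 and 6 for KO FOXP3. On chromosome 4 the stretches were aligned to the window, which was chosen for its excess, so its rank is a description too.

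**Figure D1:**
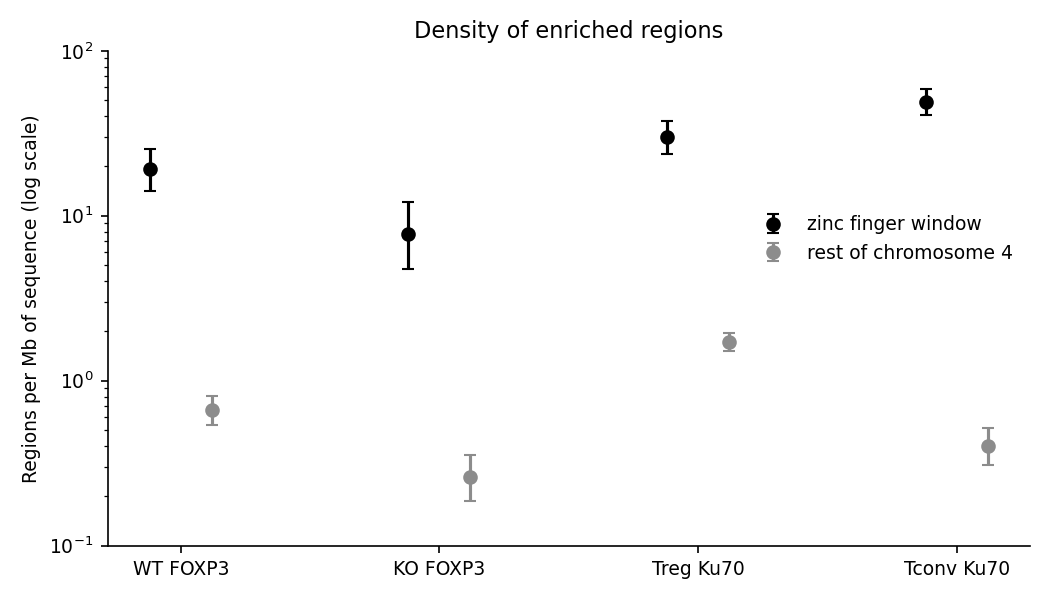
Regions per Mb of sequence (log scale) in the zinc finger window (black) and on the rest of chromosome 4 (grey) for each list. Points are 1 list each and bars are exact 95% Poisson intervals. Tconv Ku70 is highest in the window, at 49.1 per Mb, although its density on the rest of the chromosome, 0.401 per Mb, is below that of WT FOXP3.

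The first and last regions lay well inside the limits of the window, so its exact ends decide few members. The first WT FOXP3 summit was 405 kb from the left limit and the last was 255 kb from the right limit. The nearest WT FOXP3 summits outside were 421 kb to the left and 3102 kb to the right. For Tconv Ku70 the first and last summits were 408 and 144 kb inside, and the nearest outside were 7173 and 1433 kb away. For KO FOXP3 the corresponding distances were 542 and 190 kb inside and 15965 and 1254 kb outside. The Treg Ku70 list came closest to the left limit, with summits 143 kb inside and 126 kb outside it. On the right its last summit was 161 kb inside and the next was 1268 kb outside.

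Strength at the summit was low in all 4 lists. The −log10 q was 0 for each of the 272 regions, and also for every region on the rest of chromosome 4. In the whole lists it was above 0 for 6 of 1751 WT FOXP3 and 8 of 544 KO FOXP3 regions. For Ku70 it was above 0 for 18 of 5295 regions in Tregs and 12 of 1791 in Tconv. Fold enrichment, the signal at the summit relative to input, had a median of 2.17 among Treg Ku70 members (range 1.62 to 3.80) and 2.09 among those of Tconv Ku70 (1.45 to 3.16). For FOXP3 the median was 2.03 in WT (1.56 to 3.09) and 1.94 in KO (1.77 to 2.77). On the rest of chromosome 4 the medians were 2.04, 2.20, 1.99 and 2.04 in the same order. The fold medians in the window and outside it were therefore close. The median −log10 p was 1.86 in the window and 1.34 on the rest of the chromosome for WT FOXP3, and 2.03 and 1.47 for Treg Ku70. It was 1.95 and 1.99 for Tconv Ku70 and 1.44 and 1.40 for KO FOXP3. A −log10 p of 2 or more was reached by 17 of 49 WT FOXP3 regions (34.7%, against 20.6% of that whole list and 15.2% on the rest of chromosome 4) and by 40 of 77 Treg Ku70 regions (51.9%, against 38.5% and 40.1%). For Tconv Ku70 it was reached by 60 of 126 (47.6%, against 49.1% and 50%), and for KO FOXP3 by 4 of 20 (20%, against 34.2% and 25.6%). Median widths were 180 to 190 bp, close to the lower limit of 140 bp.

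Spacing followed the counts. Neighbouring summits of the same list were a median of 10.6 kb apart for Tconv Ku70, 23.3 kb for Treg Ku70, 30.2 kb for WT FOXP3 and 85.5 kb for KO FOXP3. Left of the window on the same chromosome the medians were 982, 322, 1012 and 2598 kb. Among Tconv Ku70 neighbours 62 of 125 pairs were within 10 kb, and 8 were within 1 kb. Per 100 kb, the fullest stretch over all lists was 147.1 to 147.2 Mb with 23 regions, of which 13 were Tconv Ku70, 6 Treg Ku70 and 4 WT FOXP3. It contains the whole of Zfp991. The WT FOXP3 list was fullest at 146.2 to 146.3 Mb, with 8 regions against 3 Treg Ku70, 2 Tconv Ku70 and 1 KO FOXP3. The first 4 stretches of 100 kb, which hold Vps13d, Tnfrsf1b and Tnfrsf8, had 3 regions, all Treg Ku70, and the last 100 kb had none.

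**Figure D2:**
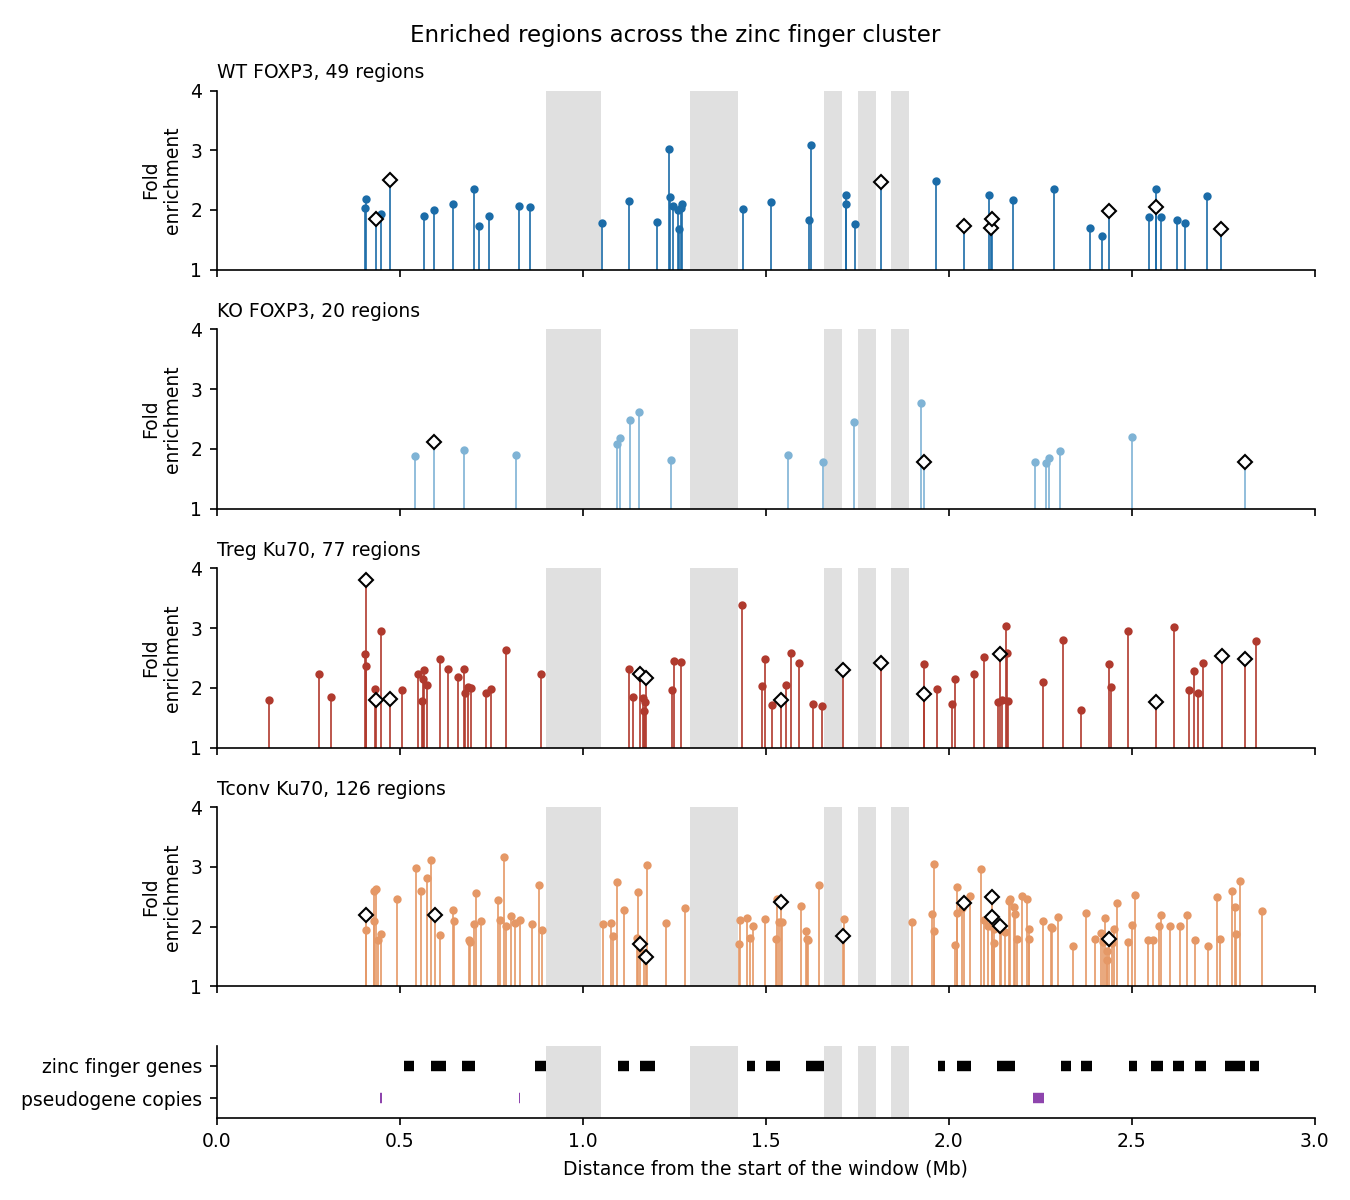
Fold enrichment of each region against the distance of its summit from the start of the window (Mb), 1 panel per list, with zinc finger genes (black) and their pseudogene copies (purple) beneath and assembly gaps in grey. Open diamonds mark regions that overlap a region of another list. Apart from 3 Treg Ku70 regions, the regions begin near 0.4 Mb, before the first finger array, which starts at 145449619. In all, 19 regions, these 3 included, lie left of the first array and 2 lie right of the last. The others are spread over the whole length between them.

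All 20 zinc finger genes had a summit inside or within 3 kb. Regions of 4 lists were found at 4 of them, of 3 lists at 7, of 2 lists at 5 and of 1 list at 4. By list, 16 of the 20 genes (80%) had a Tconv Ku70 region, 17 (85%) a Treg Ku70 region, 10 (50%) a WT FOXP3 region and 8 (40%) a KO FOXP3 region. Over all 21938 protein-coding genes the shares were 3.53%, 8.93%, 2.64% and 1.02%. For the 665 zinc finger genes elsewhere in the genome they were 3.01%, 9.17%, 1.95% and 0.752%, so zinc finger genes outside the cluster were close to genes in general. Genes of the cluster were longer, with a median of 30.9 kb against 17.1 kb for the others, and the part of length in these shares was not tested.

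Zfp991, a gene of 48.5 kb with 11 fingers, had the most regions, 14 in all. They were 7 Tconv Ku70, 6 Treg Ku70 and 1 WT FOXP3, and none was from the KO FOXP3 list. Zfp600, with 17 fingers, had 5 Treg Ku70 and 4 Tconv Ku70 regions and none for FOXP3. Zfp980 had 4 Treg Ku70, 3 Tconv Ku70, 1 WT FOXP3 and 1 KO FOXP3 region. Zfp993, which ends just before an assembly gap and whose coding sequence encodes 2 fingers, had 4 Tconv Ku70, 2 Treg Ku70, 2 WT FOXP3 and 1 KO FOXP3 region. These 4 genes span 33.8 to 48.5 kb and lead the cluster in total.

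The other genes with regions of all 4 lists were Gm13212 (3 Tconv Ku70 and 1 of each of the others) and Zfp987 (2 Tconv Ku70, 2 KO FOXP3, 1 Treg Ku70 and 1 WT FOXP3). FOXP3 regions in WT Tregs were most frequent at Zfp985, with 3, beside 3 Tconv Ku70 and 1 Treg Ku70. Zfp981 had 4 Tconv Ku70, 2 Treg Ku70 and 1 WT FOXP3 region. Zfp978 and Zfp979 each had 1 region of the WT FOXP3, Treg Ku70 and Tconv Ku70 lists. Zfp982 had 2 Tconv Ku70, 1 Treg Ku70 and 1 KO FOXP3 region, and Zfp984 had 4, 1 and 1.

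Rex2, which encodes 15 fingers, had 5 Tconv Ku70 regions and 1 WT FOXP3 region and no Treg Ku70 region. Zfp992 had 3 regions, all Tconv Ku70. Zfp986 had 2 Tconv Ku70 and 1 Treg Ku70 region, Zfp534 had 2 Treg Ku70 and 1 Tconv Ku70 region, and Zfp988 had 1 Treg Ku70 and 1 KO FOXP3 region. A single region was found at Zfp990 (KO FOXP3), Zfp989 (Treg Ku70) and Zfp933 (Treg Ku70). Counts of 1 to 7 per gene and list are too few to separate one gene from its neighbours.

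**Figure D3:**
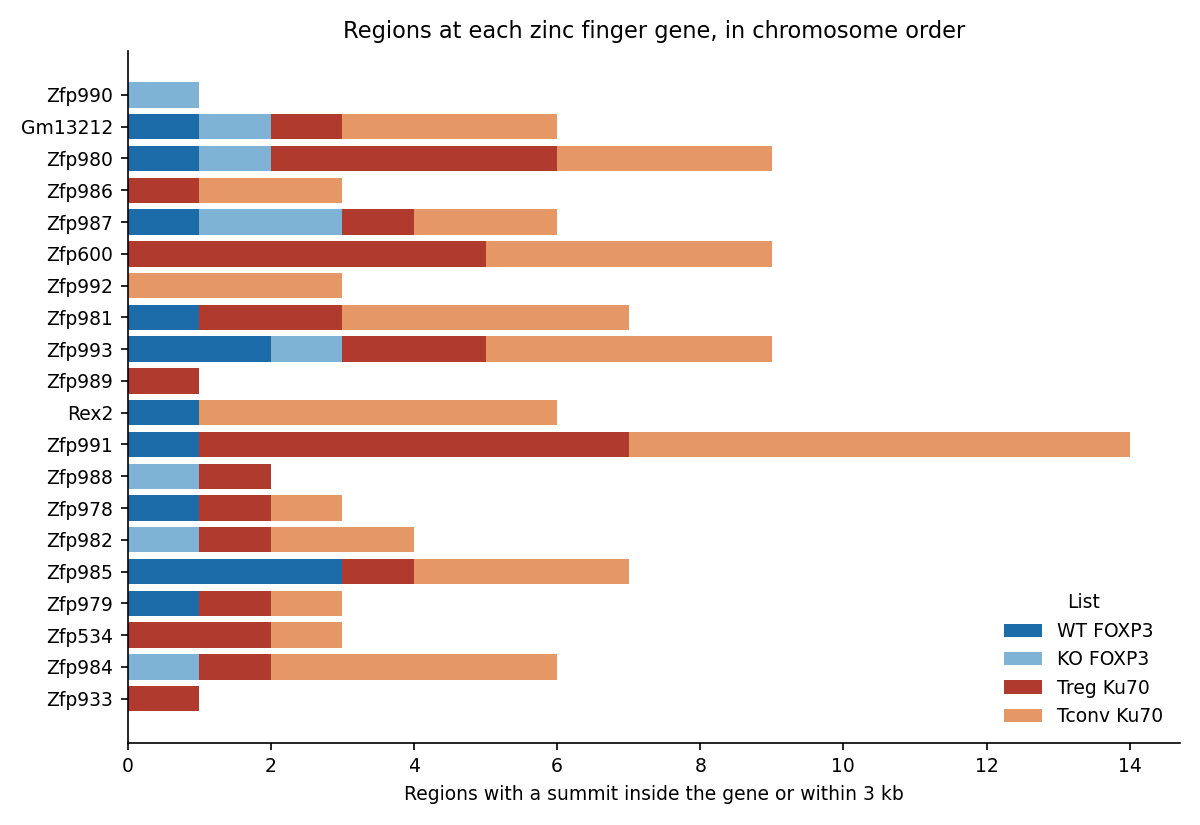
Number of regions with a summit inside each of the 20 zinc finger genes or within 3 kb, stacked by list, with genes in chromosome order from top to bottom. Zfp991 has 14 regions, and Zfp990, Zfp989 and Zfp933 have 1 each.

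The 3 pseudogene copies also had regions. Gm13230 and Gm13147 each had 3, from WT FOXP3, Treg Ku70 and Tconv Ku70 at the former and from KO FOXP3, Treg Ku70 and Tconv Ku70 at the latter. Znf41-ps had 1 WT FOXP3 and 1 Tconv Ku70 region. Together with the genes they accounted for 40.8% of the 272 regions, against 32.7% of window sequence sampled at 1 position per kb. By list the share was 50% for KO FOXP3 (29.9 to 70.1%, Wilson interval), 44.2% for Treg Ku70 (33.6 to 55.3%), 41.3% for Tconv Ku70 (33.1 to 50%) and 30.6% for WT FOXP3 (19.5 to 44.5%). The intervals for Treg Ku70 and Tconv Ku70 lay above the sampled share, and those of both FOXP3 lists contained it. Pseudogenes of any kind, 51 of which are processed copies of other genes, had a region within 3 kb in 35 of 61 cases and inside them in 10. Their share of summits was 24.5% for WT FOXP3 and 25% for KO FOXP3, and it was 19.5% and 17.5% for Ku70 in Tregs and Tconv, against 15.1% of sampled positions.

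Of the other 11 protein-coding genes, 4 had a region. Tnfrsf8, which encodes the lymphocyte receptor CD30, had 2 Treg Ku70 regions, and Vps13d, a lipid transport gene, had 1. Gm16503 had 1 WT FOXP3 and 1 Tconv Ku70 region and Gm21411 had 1 Tconv Ku70 region, and both lie within the array. Tnfrsf1b, Miip, Fv1, Mfn2, Plod1, 2510039O18Rik and Nppb had none. By annotation, 106 summits were in introns of noncoding genes or pseudogenes and 83 in introns of protein-coding genes. A further 58 were intergenic, and 9 were in exons of protein-coding genes, 10 in exons of pseudogenes and 6 in exons of noncoding genes. The long noncoding RNA Gm26573, annotated over 872 kb of the array, held or adjoined 80 regions, C230088H06Rik 70 and Gm26624 48.

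Summits within 1 kb of a start of a zinc finger gene, by GENCODE, numbered 8 of 272, 2.94%, against 1.56% of sampled window positions. They were 4 Tconv Ku70, 3 Treg Ku70, 1 KO FOXP3 and 0 WT FOXP3. The Tconv Ku70 region at Gm13212, at 145585123 to 145585543, was 3.12-fold enriched and its summit was 182 bp from the start. At Zfp600 the Tconv Ku70 summit was 5 bp and the Treg Ku70 summit 172 bp from the start, and these regions overlapped. At Zfp984 the Treg Ku70 summit was 47 bp and the KO FOXP3 summit 72 bp from the start, and these overlapped too. The others were Tconv Ku70 summits at Zfp992 (31 bp) and Rex2 (618 bp) and a Treg Ku70 summit at Zfp978 (568 bp). The WT FOXP3 region at Zfp981 lay at an internal start, 12859 bp from the outermost start of that gene in GENCODE, over the RefSeq promoter shown above. Likewise, the Tconv Ku70 summit at the RefSeq start of Zfp982 was 8044 bp from the outermost start of that gene in GENCODE.

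The regions at the starts of Gm13212, Zfp600 and Zfp984, the WT FOXP3 region at Zfp981 and a Treg Ku70 region in Zfp980 were linked by near copies, though not each to every other. Near copies were BLAST alignments with at least 90% identity over at least 80% of a region, and regions linked through near copies were put in 1 group. This group had 7 regions, 3 Treg Ku70, 2 Tconv Ku70, 1 WT FOXP3 and 1 KO FOXP3, and its fold enrichment ran from 1.70 to 3.12. The median share of repeat-masked bases in it was 0%. Counting itself, the upstream sequence of Zfp984 had 22 copies in the window at 80% identity or more over 80% of its length. The search was made after the group had been seen. Of these copies 8 were within 1 kb of a zinc finger gene or pseudogene start, and 5 of the 22 were touched by a region. These 5 were touched by 2 Tconv Ku70, 2 Treg Ku70, 1 WT FOXP3 and 1 KO FOXP3 region. Only the copy at 146430805 to 146431061 was touched by a region outside the group, from Tconv Ku70. How many such stretches would be touched by coverage alone was not tested. The copies at the starts of Zfp990, Zfp987, Zfp993, Zfp991, Zfp985 and Zfp534 had none, and those at Gm13212 and Zfp984 did.

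The largest group, of 8 regions, lay on arrays of fingers, 5 of them in exons of zinc finger genes, 1 in an exon of the pseudogene Gm13230 and 2 on an array outside the annotated family. It had 4 WT FOXP3, 2 Treg Ku70 and 2 Tconv Ku70 regions, and fold enrichment of 2.08 to 2.95. The 61 bases around the summits of 6 of them are shown because they hold the repeated finger code itself. They are given on the plus strand of mm10, with the central 31 bases, used to count copies, in capitals.

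WT FOXP3 region in Zfp980, chr4:145701657-145701717: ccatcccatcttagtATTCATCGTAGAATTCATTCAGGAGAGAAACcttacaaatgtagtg
WT FOXP3 region in Zfp987, chr4:146125289-146125349: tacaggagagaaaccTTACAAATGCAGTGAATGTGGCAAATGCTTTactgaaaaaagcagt
WT FOXP3 region outside any annotated gene of the family, chr4:146718341-146718401: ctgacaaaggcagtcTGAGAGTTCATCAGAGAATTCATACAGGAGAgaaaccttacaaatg
Treg Ku70 region in Zfp987, chr4:146125750-146125810: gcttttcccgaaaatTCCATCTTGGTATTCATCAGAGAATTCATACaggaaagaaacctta
Tconv Ku70 region in Zfp981, chr4:146537561-146537621: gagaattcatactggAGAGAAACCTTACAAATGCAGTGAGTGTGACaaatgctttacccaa
Tconv Ku70 region in Zfp991, chr4:147179485-147179545: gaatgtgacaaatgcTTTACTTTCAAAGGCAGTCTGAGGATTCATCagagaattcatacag

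A finger is followed in these proteins by a linker, and the 8 letters GAGAAACC are part of its code. Within 50 bp of the summit, on either strand, they occurred in 8 of the 9 regions on a finger array, in 2 of 263 other regions of the window (0.760%), and in 3 of 455 regions on the rest of chromosome 4 (0.659%). In window sequence sampled at 1 position per kb they occurred in 2.06%. Around all positions of the finger arrays, with or without a region, the share was 81.1%, so the letters follow from lying on an array. The 9 regions on arrays were 4 WT FOXP3, 3 Tconv Ku70 and 2 Treg Ku70, on 6 of the 26 arrays, which take up 1.11% of the window. Since fingers repeat within an array, copies are many, and the WT FOXP3 region at 146718258 to 146718408 had 75 near copies in the window, the most of any region. That array, of 23 fingers at 146718148 to 146720231, overlaps no zinc finger gene or pseudogene of the annotation. It carried 2 WT FOXP3 regions, with 2.24- and 2.10-fold enrichment.

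At the other finger exons 1 or 2 regions were found. Zfp987 had a WT FOXP3 region at 146125251 to 146125390, enriched 2.14-fold, and a Treg Ku70 region at 146125714 to 146125853, enriched 2.31-fold, on the same array without overlap. Zfp980 had a WT FOXP3 region, 2.35-fold, and a Tconv Ku70 region, 2.05-fold. The pseudogene Gm13230 had a Treg Ku70 region of 2.95-fold. Tconv Ku70 regions at Zfp981 and Zfp991 were enriched 2.08- and 2.32-fold.

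Over the whole window, most summits lay in sequence that occurs more than once. The 31 bases around the summit were multi-copy in the genome for 211 of 272 regions, 77.6% (72.3 to 82.1%, Wilson interval), against 63.2% of sampled window positions. By list the share was 87.8% for WT FOXP3 (75.8 to 94.3%), 65.0% for KO FOXP3 (43.3 to 81.9%), 75.3% for Treg Ku70 (64.6 to 83.6%) and 77.0% for Tconv Ku70 (68.9 to 83.5%). On the rest of chromosome 4 it was 22.2%, 33.3%, 31.5% and 23.3% of regions, and 16.7% of sampled positions. With 31 bases, the intervals in the window lay above the sampled share, itself an estimate, for all lists but KO FOXP3, and only just for Treg Ku70. With 51 bases the share was 58.7% for Tconv Ku70 (50 to 66.9%), against 53.7% of sampled window positions, and its interval contained that value. With 50 bases on either side of the summit the pooled share was 45.2% (39.4 to 51.2%), and the interval contained the sampled 41.1%. For 136 regions all copies of the 31 bases were in the window, and for 15 there were more than 100 copies in the genome. No pair of summits had the same 31 bases. Beyond the single-copy ratios given above, the part of copied sequence in the excess was not tested. Repeat-masked bases made up 37.3% of all bases in the regions and 37.3% of window sequence.

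**Figure D4:**
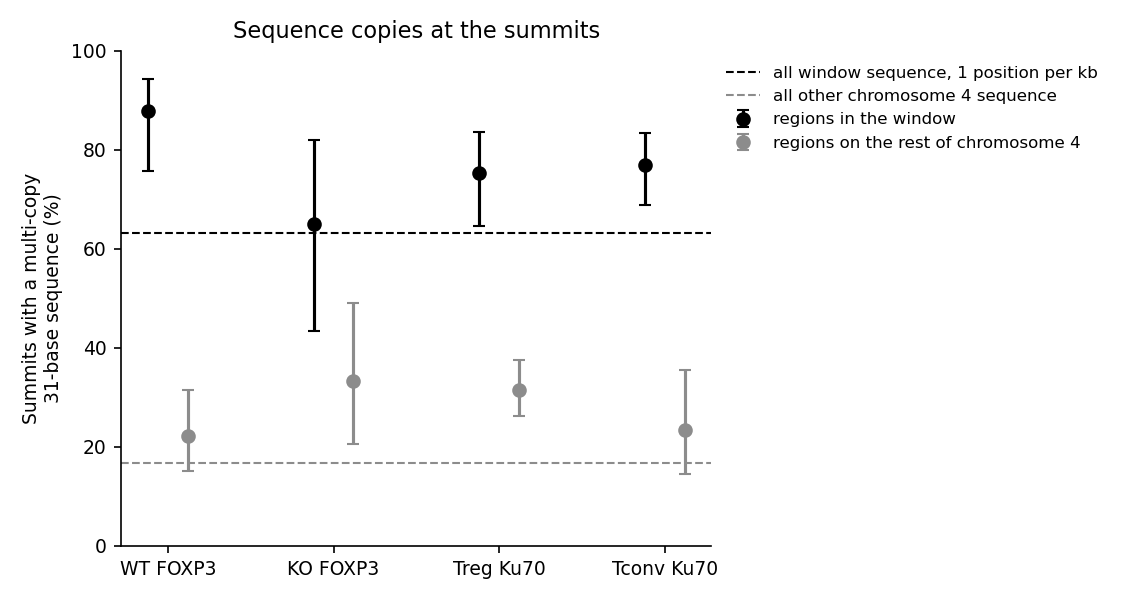
Share of summits (%) whose 31-base sequence occurs more than once in the genome, for regions in the window (black) and on the rest of chromosome 4 (grey), with 95% Wilson intervals. Dashed lines give the share of sampled sequence, 63.2% in the window and 16.7% elsewhere on the chromosome. WT FOXP3, Treg Ku70 and Tconv Ku70 lie above the black line, and the KO FOXP3 interval spans it.

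Near copies linked some regions at different positions in the window. At least 1 near copy in the window was found for 239 of the 272 regions, with a median of 5 copies. The copy held a region of another list for 48 of them. No near-copy share is given for other sequence of the window, so 239 of 272 is not read as a trait of the regions. The regions had 1827 near copies in all, and how many would hold such a region by coverage alone was not tested. Some of the linked regions also overlapped each other. Near copies joined 74 regions into 24 groups of 2 or more, of which 19 drew on 2 or more lists, 5 on 3 or more and 2 on all 4. A further 12 pairs of regions were joined by overlap alone. One of the 2 near-copy groups from all 4 lists is the group at gene starts. The other was formed by WT FOXP3 at 147645927, KO FOXP3 at 146153716, Treg Ku70 at 146969106 and Tconv Ku70 at 146094523, with 1.77-, 2.61-, 1.97- and 2.75-fold enrichment. These 4 lay 2685 to 3561 bp from the nearest start of a zinc finger gene, and none overlapped another.

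By position, 36 of the 272 regions overlapped a region of another list by at least 1 bp, in 18 pairs, and no region was shared by 3 lists. Among WT FOXP3 regions 9 of 49 did so (18.4%, against 4.74% of the whole list). The counts were 3 of 20 for KO FOXP3 (15%, against 11.4%), 13 of 77 for Treg Ku70 (16.9%, against 1.89%) and 11 of 126 for Tconv Ku70 (8.73%, against 4.63%). Wilson intervals were 9.98 to 31.4%, 5.24 to 36.0%, 10.1 to 26.8% and 4.94 to 15% in that order, so the whole-list share lay within the interval for KO FOXP3. On the rest of chromosome 4 the shares were 2.02%, 7.69%, 0.778% and 5% in the same order. Those of KO FOXP3 and Tconv Ku70 lay within the interval. The regions of the other 3 lists covered 1.75% of window sequence as seen from WT FOXP3, 1.93% from KO FOXP3, 1.52% from Treg Ku70 and 1.10% from Tconv Ku70. No WT FOXP3 region overlapped a KO FOXP3 region in the window. In the whole lists 2.28% of WT and 6.80% of KO regions did so, and a count of 0 among 49 and 20 cannot be told apart from these shares. The summits of the FOXP3 lists came within 1 kb of each other once, and 2 WT regions had a near copy under a KO region.

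Of the 18 pairs, 5 were between WT FOXP3 and Treg Ku70, the pair of lists from WT Tregs. They made up 10.2% of the WT FOXP3 and 6.49% of the Treg Ku70 regions of the window. Inside an intron of Zfp985 the WT FOXP3 region at 147564823 to 147565001 (2.05-fold) and the Treg Ku70 region at 147564886 to 147565093 (1.76-fold) had summits 8 bp apart. Their 31-base summit sequences occurred 4 times each in the genome. In Platr16, a long noncoding RNA, the pair at 145435888 to 145436077 (WT FOXP3, 1.84-fold) and 145435908 to 145436190 (Treg Ku70, 1.79-fold) had summits 39 bp apart.

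Between Platr16 and Zfp990 the pair at 145473520 to 145473799 (WT FOXP3, 2.50-fold) and 145473525 to 145473751 (Treg Ku70, 1.81-fold) was fully repeat-masked, with 298 and 10339 copies of the summit sequences. In an intron of Gm26573 the pair at 146813827 to 146813977 (2.47-fold) and 146813772 to 146813915 (2.41-fold) had 21 and 14 copies. Near the pseudogene Gm13148 the pair was at 147745115 to 147745333 (1.69-fold, 1 copy) and 147745213 to 147745661 (2.54-fold, 10 copies). Fold enrichment was not scaled between the sets, so these values are not compared across lists.

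WT FOXP3 and Tconv Ku70, from different cell types, shared 4 loci, 8.16% and 3.17% of their regions. In an intron of Rex2 the WT FOXP3 region at 147041932 to 147042100 (1.73-fold) and the Tconv Ku70 region at 147041916 to 147042198 (2.39-fold) had summits 17 bp apart. In C230088H06Rik, 15217 bp before the start of Zfp991, the regions at 147116772 to 147116964 (1.70-fold) and 147116809 to 147116952 (2.50-fold) overlapped. About 1 kb further on they were followed by a second pair at 147117835 to 147118054 (1.84-fold) and 147117833 to 147118053 (2.17-fold). These 2 pairs were the closest to each other in the window. The fourth pair, at 147437084 to 147437537 (1.99-fold) and 147437277 to 147437515 (1.80-fold), lay in introns of C230088H06Rik and Gm26624.

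KO FOXP3 shared 2 loci with Treg Ku70 and 1 with Tconv Ku70. At the start of Zfp984 the KO FOXP3 region at 147809690 to 147809829 (1.79-fold) overlapped the Treg Ku70 region at 147809768 to 147809907 (2.47-fold) by 62 bp. At the processed pseudogene Gm20760 the KO FOXP3 region at 146933282 to 146933455 (1.79-fold) overlapped the Treg Ku70 region at 146933260 to 146933457 (1.89-fold). In an intron of Gm13212 the KO FOXP3 region at 145594962 to 145595116 (2.11-fold) overlapped the Tconv Ku70 region at 145594939 to 145595102 (2.19-fold). These 3 were the only KO FOXP3 regions that overlapped another list, and all 3 lay in a gene or pseudogene.

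The Ku70 lists shared 6 loci with each other, 7.79% of the Treg and 4.76% of the Tconv regions. The Treg Ku70 region with the highest fold enrichment in the window was among them, at 145408853 to 145409185, which was 3.80-fold enriched with a −log10 p of 5.37. It lay just before the start of Platr16, at a summit with a single-copy sequence, and overlapped a Tconv Ku70 region at 145408971 to 145409176 with 2.19-fold enrichment, also single-copy. This was the only pair with both summits in single-copy sequence. The summit sequences of this pair and of the pairs in Zfp985 and Rex2 are shown on the plus strand, again with the central 31 bases in capitals, as the locus with the highest Treg Ku70 enrichment and the closest summits between FOXP3 and Ku70 in genes.

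Treg Ku70 region 5′ of Platr16, chr4:145408928-145408988: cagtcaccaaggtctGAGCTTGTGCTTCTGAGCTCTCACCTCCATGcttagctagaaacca
Tconv Ku70 region 5′ of Platr16, chr4:145408969-145409029: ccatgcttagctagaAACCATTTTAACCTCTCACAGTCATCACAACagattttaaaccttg
WT FOXP3 region in Zfp985, chr4:147564901-147564961: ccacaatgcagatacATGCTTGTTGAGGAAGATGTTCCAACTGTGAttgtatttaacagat
Treg Ku70 region in Zfp985, chr4:147564893-147564953: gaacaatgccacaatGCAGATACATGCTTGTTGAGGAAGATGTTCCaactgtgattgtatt
WT FOXP3 region in Rex2, chr4:147041927-147041987: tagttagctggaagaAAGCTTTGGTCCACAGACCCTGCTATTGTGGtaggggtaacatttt
Tconv Ku70 region in Rex2, chr4:147041944-147042004: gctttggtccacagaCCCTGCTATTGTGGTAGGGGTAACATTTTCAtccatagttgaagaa

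Zfp600 held 2 of the Ku70 pairs. At its start the Treg region at 146156864 to 146157040 (2.22-fold) overlapped the Tconv region at 146156794 to 146156999 (1.70-fold), with 2 copies of each summit sequence. In an intron, 17331 bp from the start, the Treg region at 146173982 to 146174191 (2.17-fold) overlapped the Tconv region at 146173993 to 146174177 (1.48-fold). In an intron of Zfp991 the Treg region at 147140637 to 147140780 (2.56-fold) overlapped the Tconv region at 147140534 to 147140715 (2.01-fold). The remaining pairs were at 146541060 to 146541270 (Treg, 1.80-fold) and 146541255 to 146541527 (Tconv, 2.41-fold), just past Zfp981, and at 146709940 to 146710431 (Treg, 2.29-fold) and 146709928 to 146710231 (Tconv, 1.85-fold) in Gm26573. With 1 list per cell type, no test of a difference between Tregs and Tconv is possible.

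The 3 regions with the highest fold enrichment in each list were mostly not shared. For Tconv Ku70 they were at 145785797 to 145785975 (intergenic, 3.16-fold), at the start of Gm13212 (3.12-fold) and at 146960507 to 146960681 (Gm26573, 3.05-fold). For Treg Ku70 they were, after the region by Platr16, at 146434662 to 146434877 (Gm26573, 3.39-fold) and 147156253 to 147156419 (Zfp991 intron, 3.03-fold). For WT FOXP3 they were at 146623094 to 146623240 (Zfp993 intron, 3.09-fold), 146236832 to 146236996 (Gm26573, 3.02-fold) and 145473520 to 145473799 (2.50-fold), the last of which is shared with Treg Ku70. The WT FOXP3 region in Zfp993 had 224 copies of its summit sequence and that in Gm26573 had 3. For KO FOXP3 they were at 146925021 to 146925188 (Gm26573, 2.77-fold, single-copy), 146153716 to 146153914 (Gm26573, 2.61-fold) and 146129203 to 146129342 (2.48-fold), near Zfp987.

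The forkhead core TGTTTAC, the kind of sequence FOXP3 binds, lay within 50 bp of the summit, on either strand, in 3 of the 272 regions (1.10%). It was found at 1 WT FOXP3, 2 Treg Ku70, 0 KO FOXP3 and 0 Tconv Ku70 summits, against 1.75% of sampled window positions and 1.32% of the 455 regions on the rest of chromosome 4. Among 11 genes for TRIM28 and its partners in KRAB silencing (Trim28, Setdb1, Atf7ip, Cbx1, Cbx3, Cbx5, Morc3, Atrx, Daxx, Dnmt1 and Uhrf1), Atf7ip had a Treg Ku70 region within 3 kb and no other gene had a region of any list. Among 6 T cell genes, Il2ra and Ikzf2 had a Treg Ku70 region and Ikzf2 a Tconv Ku70 region. Foxp3, Ctla4, Cd4 and Cd3e had none, and no FOXP3 region was at any of the 6, so the labelled cell types could not be checked at these genes.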

How the data were processed

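ChIP-Seq of FOXP3 and Ku70 in sorted mouse T cells was taken from 4 deposited region lists. The study's methods name trim_galore for trimming, Bowtie2 at default settings for mapping to mm10, Picard for duplicates, and MACS2 (p of 0.05, no model), which the authors ran on both replicates of a set with its input. Versions are not given in the sources used here. By default Bowtie2 places a read that fits several sites equally well at 1 of them, so values at copied sequence cannot be assigned to 1 copy. The deposited columns are the fold enrichment (a ratio to input), −log10 p-value and −log10 q-value of each summit, the summit offset in bp, and a score that is 10 times the −log10 p, which was not used. Lists were assigned by the labels, although their region names read iTreg, Teff and CKO for Treg, Tconv and KO.

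Rows with the same limits were combined, keeping the strongest summit. Sequence and copies came from GRCm38.p6, genes from GENCODE M21 and promoters from RefSeq. Copies were exact matches on both strands. Of the 20 zinc finger genes, 14 had a promoter entry. Fingers were counted in coding sequence as C, 2 to 4 residues, C, 12 residues, H, 3 to 5 residues, H, and genes called Zfp or Rex2 were included at any number. Intervals are Wilson for shares, exact Poisson for densities and exact binomial for their ratio. The overlap code was tested on simulated data. Regions were named when they overlapped another list or were among the 3 with the highest fold in a list. Zinc finger genes and other protein-coding genes of the window were all named where hit. Members, gene lists and rules were chosen with earlier results of these data known. The 4 regions on an unlocalized contig of chromosome 4 were left out (1 WT FOXP3, 2 Treg Ku70 and 1 Tconv Ku70). Analyses were run with BLAST 2.17.0 and scipy 1.17.1 under Python 3.11.15.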

Additional observations from a re-analysis of the deposited data

How the results depend on the processing

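Of 71 values computed under alternatives, 40 lay inside the 95% interval around the main value (for medians, an order-statistic interval over regions) or, for counts of regions, within 1.5 times of it, and 31 moved. Keeping only regions with a −log10 p of 2 or more left 17 FOXP3 regions in WT and 4 in KO, and 40 Ku70 regions in Tregs and 60 in Tconv. Their median fold enrichment was 2.24, 2.55, 2.42 and 2.41, the density ratio was 66.0 for WT FOXP3 and 22.6 for Treg Ku70, and 4.96% overlapped another list, against 13.2% of all 272. Single-copy summits alone left 6, 7, 19 and 29 regions in the same order, with density ratios of 10.3 for WT FOXP3 and 83.0 for Tconv Ku70 and a median WT FOXP3 fold enrichment of 1.89. Of them 3.28% overlapped another list. The share at zinc finger genes or pseudogenes was 32.8%, against 32.7% of sampled window positions of any copy number. Merging regions within 10 kb gave 64 Tconv Ku70 regions and ratios of 66.5 for Tconv Ku70 and 12.8 for Treg Ku70. Against all autosomes the Tconv Ku70 ratio was 75.03. With summits within 1 kb counted as shared, 23.2% were found in another list. That share was 8.07% without the WT FOXP3 list, 5.13% without Treg Ku70 and 9.59% without Tconv Ku70, since fewer lists leave fewer partners. A 10-kb flank put 55.1% at zinc finger genes or pseudogenes, and no sampled share is given for that flank. Multi-copy summits were 62.9% with 51 bases in place of 31, against 53.7% of sampled positions. With 50 bases on either side of the summit they were 45.2% (39.4 to 51.2%), an interval that contains the sampled 41.1%. The causes of the other shifts were not tested. The density ratio stayed above 10 in every list under all alternatives computed. No paired analysis was possible because each list was called on pooled replicates. Without replicate values, depth or a q-value above 0, single regions remain uncertain, and reads from copied sequence cannot be assigned to 1 copy.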
